A study of Mus musculus with 4 samples.

Results

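The circadian clock genes described here are 10 genes, Arntl, Clock, Per1, Per2, Per3, Cry1, Cry2, Nr1d1, Nr1d2 and Dbp, taken by symbol from a table of 39017 genes. Each symbol was found once, and all 10 genes passed the filter on low counts. Their transcripts were counted in 4 bulk lung tumors that form a single Control group, named tumors 1 to 4 after the replicate numbers in the labels. All mice were male, of the C57BL/6 strain, were of the KP line, a lung adenocarcinoma model that carries p53Fl/Fl and in which Cre deletes Trp53 as tumors are started, and were also labeled heterozygous fl/wt, a label that names no gene. The methods of the study describe control mice as either wild type or heterozygous for a floxed Slc2a1 allele, and the deposited log2 table marks all 4 samples WT, so which of these the tumors carried is not settled here. Each mouse had been given 1500 units of a Cre lentivirus through the trachea, and tumors were collected after 22 weeks and 5 days. Cre was driven by the PGK promoter, which is active in most cell types, and the tumors were dissociated whole, so stromal and immune RNA was counted along with that of cancer cells. Neither the labels nor the methods of the study give the time of day at which the tumors were taken or the lighting of the animal room.

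The circadian clock is a feedback loop of transcription that runs with a period of about a day in nearly all cells, including those of the lung. A dimer of the Arntl (Bmal1) and Clock proteins binds E-boxes and switches on the Per, Cry and Nr1d genes, after which Per and Cry proteins inhibit the dimer, and the Nr1d (REV-ERB) receptors repress Arntl through ROR elements (ROREs). Dbp, itself an E-box target, activates further genes through D-boxes. In a tissue sampled around the clock, Arntl transcripts peak at about the opposite phase from those of Nr1d1, Dbp and Per genes.

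These DNA elements were looked for in the RefSeq promoters of the clock genes (GRCm38.p6), in the 250 bases before each annotated start. The table held 13 promoters for 9 of the 10 genes, with no entry for Per2. The letters searched on both strands were CACGTG for the E-box, CACGTT for the weaker E-prime box, TTATGTAA or TTATGCAA for the D-box, and TAGGTCA for the RORE core. No letters of one motif are shared in full with another, although both E-box forms share their first 5 letters. At least 1 motif was present for 5 genes. The stretches that hold them are shown with motifs in capitals and 12 bases on each side. They match the letters of elements through which clock proteins act, and binding to them was not measured here.

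Per1 (chr11:69098771-69098944, plus strand, an E-box that begins 166 bases before the start and a D-box at 24):
Per1: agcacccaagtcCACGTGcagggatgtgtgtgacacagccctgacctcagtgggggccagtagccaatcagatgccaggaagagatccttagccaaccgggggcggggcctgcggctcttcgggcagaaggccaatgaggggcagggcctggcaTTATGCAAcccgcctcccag
Per3 (chr4:151044804-151044882, minus strand, D-boxes at 205 and 158 bases):
Per3: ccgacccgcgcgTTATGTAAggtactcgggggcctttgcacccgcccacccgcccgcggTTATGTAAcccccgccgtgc
Cry1 (chr10:85185097-85185145, minus strand, an E-prime box at 79 bases and an E-box at 60):
Cry1: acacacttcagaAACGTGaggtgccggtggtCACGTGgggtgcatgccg
Cry2 (chr2:92434218-92434247, minus strand, an E-prime box at 166 bases):
Cry2: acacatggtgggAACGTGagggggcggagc
Nr1d1 (chr11:98775388-98775417, minus strand, an E-prime box at 28 bases):
Nr1d1: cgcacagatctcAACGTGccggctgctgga

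In the printed orientation the E-prime boxes read AACGTG, the reverse complement of CACGTT. Among all 32851 mouse promoters of this length, 6.02% held an E-box, 3.85% an E-prime box, 1.5% a D-box and 2.23% a RORE core. None of the windows of Arntl, Clock, Nr1d2 or Dbp held any of these letters, which says nothing of elements farther away or inside the genes. The 250 bases of the Dbp entry lie for 159 bases in exons annotated to Dbp itself.

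Total counts were between 8151613 and 8799007 per tumor, and 3 counts, the limit that a count of 0 allows, were 0.330 to 0.370 CPM (counts scaled to a library of 1000000 reads, with TMM factors). Trp53, floxed in this model, and Slc2a1, the glucose transporter Glut1 that the study deletes in other mice, were transcribed in every tumor: Trp53 had 11.9 ± 1.49 CPM and Slc2a1 68.2 ± 25.5 CPM (mean ± SD, n = 4), and neither value tells which alleles were recombined. The clock genes together had 356 CPM in tumor 1, 358 in tumor 2, 446 in tumor 3 and 452 in tumor 4. Markers of alveolar type 2 cells (8 of 8 genes tested) summed to 32860 CPM in tumor 1 and 53158 to 60875 in the others. Of this sum, Sftpc alone gave 17722 CPM in tumor 1 and 24926 to 29617 in the others. Markers of leukocytes (5 of 5) summed to between 515 and 820 CPM, of which Lcp1 alone gave 412 to 696. Those of T cells (4 genes, 3 of them with a mean of at least 1 CPM) summed to 18.3 CPM in tumor 3 and at most 3.45 elsewhere. The T cell rise came mostly from Cd2 (12.6 CPM in tumor 3 against 0.813 to 2.14) and Cd3g (3.33 against 0.357 to 0.581). Trbc2 (1.73 against 0.357 to 1.51) and Cd3e (0.617 against 0.220 to 0.595) were hardly higher there. No marker was at 0 in all tumors. In such bulk tissue, fewer cells of a type and less RNA per cell cannot be told apart.

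With 1 group there was no contrast between conditions, and the question that could be put to the clock genes was how their levels differed between tumors and relative to each other. For each gene a chi-square test asked whether its 4 counts varied more than Poisson sampling alone gives, with Benjamini-Hochberg adjustment over 14225 genes. All 10 clock genes passed at an adjusted p below the 0.05 threshold, but so did 76.7% of all genes tested, so passing is not particular to the clock. Since every tumor gave 1 library, tumor and library cannot be told apart. Over the tumors, the SD of log2 CPM exceeded the median of all genes, 0.29, for 6 of the 10 clock genes.

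**Figure D1:**
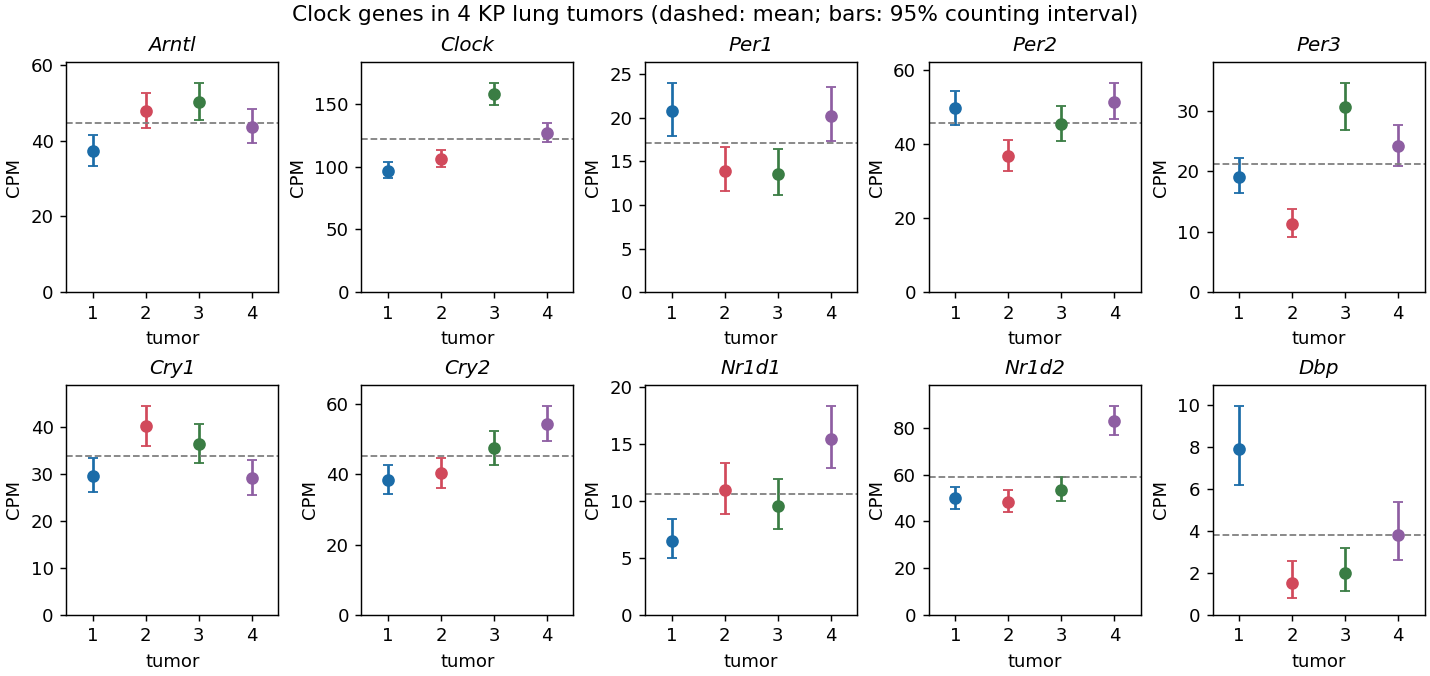
CPM (y axes, each from 0) of the 10 clock genes in tumors 1 to 4 (x axes); points are single tumors, bars are 95% Poisson counting intervals and dashed lines are means of 4 tumors. Dbp ranges from 1.51 to 7.92 CPM, whereas Arntl stays between 37.2 and 50.1 CPM.

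Arntl and Clock, the activators of the loop, both had their lowest level in tumor 1 and their highest in tumor 3. Arntl (ENSMUSG00000055116, chr7:113207465-113314126, plus strand, GRCm38) had 37.2, 47.7, 50.1 and 43.6 CPM in tumors 1 to 4, or 44.7 ± 5.65 CPM (SD, n = 4). Tumor 1 was lowest, and the other 3 ranged from 43.6 to 50.1 CPM. The highest value was 1.35 times the lowest, and the SD of 0.19 on the log2 scale was the smallest of the 10 genes, rank 10504 of 14225 from the most variable (chi-square, adjusted p = 0.000525). Without tumor 1 the spread of Arntl no longer passed (SD 0.10, chi-square, adjusted p = 0.195). Clock (ENSMUSG00000029238, chr5:76209868-76304792, minus strand) had 96.9, 107, 158 and 127 CPM, or 122 ± 26.9 CPM (SD, n = 4). It was highest in tumor 3, 1.63 times its level in tumor 1 (chi-square, adjusted p = 1.03e-31), and its SD of 0.31 went to 0.20 without tumor 3. By mean log2 CPM, leukocyte markers (6.49 against 5.35 to 5.78) and endothelial markers (5.17 against 4.63 to 4.69) were also highest in tumor 3, with 4 of 5 and 3 of 5 genes at their highest there. By summed CPM, leukocyte markers were highest in tumor 2 (820 against 794 in tumor 3), with Lcp1 alone at 696 against 542 CPM. Their part in the level of Clock was not tested.

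The 3 Per genes, whose proteins carry the inhibitory signal together with Cry, did not share one order of tumors. Per1 (ENSMUSG00000020893, chr11:69095217-69109960, plus strand) had 20.8, 13.9, 13.6 and 20.2 CPM, or 17.1 ± 3.91 CPM (SD, n = 4). Tumors 1 and 4 were high and nearly equal, tumors 2 and 3 were low and nearly equal, and the highest was 1.53 times the lowest (chi-square, adjusted p = 8.61e-05). Per1 is also known as an immediate-early gene, and of the 10 immediate-early genes listed here 7 were highest in tumor 1 and 6 were lowest in tumor 2. The part of that response, which tissue dissociation can start, was not tested.

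Per2 (ENSMUSG00000055866, chr1:91415982-91459324, minus strand) had 49.6, 36.7, 45.4 and 51.4 CPM, or 45.8 ± 6.55 CPM (SD, n = 4). Tumor 2 was below the rest, and the highest value was 1.4 times the lowest (chi-square, adjusted p = 4.53e-05). Without tumor 2 the spread did not pass (SD 0.09 against 0.22 with it, chi-square, adjusted p = 0.244). Per3 (ENSMUSG00000028957, chr4:151003652-151044665, minus strand) had 19.1, 11.3, 30.6 and 24.1 CPM, or 21.3 ± 8.16 CPM (SD, n = 4). It was the most variable Per gene, with a value in tumor 3 that was 2.72 times that in tumor 2 (SD 0.61, chi-square, adjusted p = 1.82e-16), and without tumor 2 the range was 1.60-fold and the SD 0.34. A stretch of 90 nt in an annotated Per3 transcript is 97.8% identical to one of Rspry1, so some of its reads could be misassigned.

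Cry1 and Cry2, the cryptochromes, are direct inhibitors of the Arntl and Clock dimer. Cry1 (ENSMUSG00000020038, chr10:85131700-85185064, minus strand) had 29.7, 40.2, 36.4 and 29.1 CPM, or 33.9 ± 5.36 CPM (SD, n = 4). Tumors 2 and 3 were high and tumors 1 and 4 low, the reverse of the arrangement of Per1, with a 1.38-fold range (chi-square, adjusted p = 0.000126). Cry2 (ENSMUSG00000068742, chr2:92403646-92434043, minus strand) had 38.3, 40.3, 47.4 and 54.4 CPM, or 45.1 ± 7.31 CPM (SD, n = 4), a 1.42-fold range with tumor 4 highest (chi-square, adjusted p = 2.20e-06). An opposite-strand transcript, D930015M05Rik, overlaps 4.7% of the Cry2 exons and had 0 counts in all tumors.

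Nr1d1 and Nr1d2 encode the heme-binding repressors REV-ERB alpha and beta, and both were highest in tumor 4. Nr1d1 (ENSMUSG00000020889, chr11:98767932-98775333, minus strand) had 6.49, 10.9, 9.50 and 15.5 CPM, or 10.6 ± 3.73 CPM (SD, n = 4). Tumor 4 was 2.38 times tumor 1, and tumors 2 and 3 lay between them (SD 0.51, chi-square, adjusted p = 3.88e-07). The 95% counting interval was 4.94 to 8.37 CPM in tumor 1 and 12.9 to 18.4 CPM in tumor 4, and these did not overlap. Nr1d2 (ENSMUSG00000021775, chr14:18204054-18239127, minus strand) had 49.96, 48.4, 53.7 and 83.3 CPM, or 58.8 ± 16.4 CPM (SD, n = 4). Its spread rested on tumor 4: the highest value was 1.72 times the lowest (SD 0.36, chi-square, adjusted p = 1.95e-24), and without tumor 4 the range was 1.11-fold (SD 0.08, chi-square, adjusted p = 0.324). Nr1d1 shares 263 bases, 8.5% of its exons, with the opposite-strand end of Thra, a thyroid hormone receptor gene. Thra had 20.8, 25.9, 24.4 and 27.0 CPM, and because the strand setting of the counting is not given in the sources used here, reads from the shared bases cannot be told apart.

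Dbp, the output factor that binds D-boxes, was the least abundant and most variable of the clock genes. Dbp (ENSMUSG00000059824, chr7:45705088-45710203, plus strand) had 7.92, 1.51, 1.97 and 3.81 CPM, or 3.80 ± 2.92 CPM (SD, n = 4), from 72, 13, 16 and 32 counts. Tumor 1 was far above tumors 2 and 3, and tumor 4 lay between. The 5.25-fold range and the SD of 1.05 on the log2 scale placed it at rank 786 of 14225 genes (chi-square, adjusted p = 4.99e-12). Counting intervals were 6.20 to 9.98 CPM in tumor 1 and 0.804 to 2.58 CPM in tumor 2. Without tumor 1 the range was 2.52-fold and the SD 0.67, and the spread still passed (chi-square, adjusted p = 0.0113).

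Dbp has 539 bases, 18% of its merged exons, in common with the opposite-strand gene Sphk2, a sphingosine kinase gene. Sphk2 had 42.5, 31.6, 23.1 and 32.9 CPM, also highest in tumor 1, and the log2 difference of Dbp minus Sphk2 ranged from -4.34 in tumor 2 to -2.41 in tumor 1. Reads from the shared bases cannot be told apart here, and their part in the spread of Dbp was not tested. Tumor 1 was also the tumor with the lowest sum of alveolar type 2 markers and with 7 of 10 immediate-early genes at their highest. Of the alveolar type 2 markers, 6 of 8 were lowest in tumor 1. Sftpb (8261 CPM in tumor 1 and 6601 in tumor 3) and Abca3 (876 and 759) were lowest in tumor 3. In tumor 1 club cell markers (3 of 3 genes tested) summed to 36.4 CPM against 521 to 878 in the others. Epithelial markers (4 of 4) summed to 3972 CPM against 2488 to 2632. Of these, Krt8 (1261 CPM against 589 to 676), Krt18 (1269 against 640 to 753) and Epcam (600 against 218 to 470) were highest in tumor 1. Cdh1 was lowest there (842 against 846 to 887). The part of these differences in the level of Dbp was not tested.

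**Figure D2:**
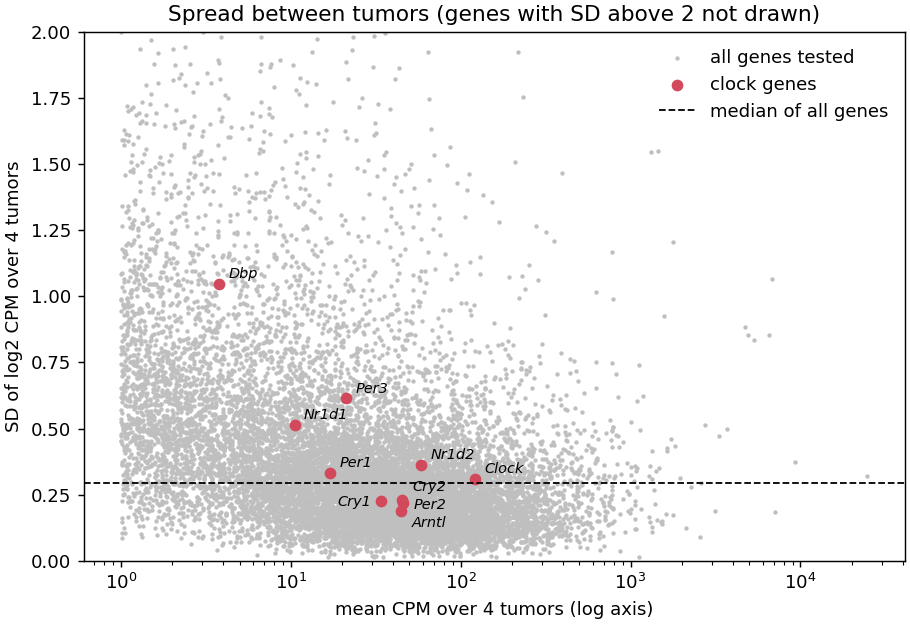
SD of log2 CPM over 4 tumors (y axis) against mean CPM (x axis, log scale) for the 14225 genes tested (gray), with the 10 clock genes in red and the median SD of all genes, 0.29, as a dashed line; 184 genes with an SD above 2 are not drawn. Dbp has an SD of 1.05, Per3 of 0.61 and Nr1d1 of 0.51, and Arntl, Cry1, Cry2 and Per2 lie below the line.

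To compare levels between genes, CPM were divided by the length of the merged exons of each gene. On this scale of CPM per kilobase, Nr1d2 was highest with 10.9 ± 3.04 (SD, n = 4), followed by Cry1 with 10.1 ± 1.60, Clock with 8.89 ± 1.96, Per2 with 7.82 ± 1.12, Cry2 with 7.13 ± 1.16 and Arntl with 5.94 ± 0.752. A lower tier held Nr1d1 with 3.44 ± 1.21 CPM per kilobase, Per1 with 3.04 ± 0.694, Per3 with 2.22 ± 0.850 and Dbp with 1.27 ± 0.975. The level of Dbp rested on tumor 1, without which its mean was 0.803 CPM per kilobase. The gap between the tiers, Arntl above Nr1d1 by 0.84 ± 0.45 on the log2 scale, was present in 4 of 4 tumors.

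All 45 pairs of clock genes were compared within tumors by an exact permutation test (two-sided, flipping the signs of the differences). The smallest p that 4 tumors allow is 0.125 (exact permutation test), or 0.170 after adjustment over the 45 pairs, so no pair could pass 0.05. The same gene of the pair was higher in 4 of 4 tumors for 33 pairs, or for 30 with the length of the longest transcript. Of the 9 neighbors in the order, Cry2 and Arntl (log2 difference 0.26 ± 0.24) and Arntl and Nr1d1 were ordered alike in 4 of 4 tumors. The order of Cry2 and Arntl rested on the merged exon lengths, 6320 and 7523 nt, whereas their longest transcripts are 3976 and 3995 nt. Before division by length, log2 CPM of Cry2 minus Arntl was 0.04, -0.24, -0.08 and 0.32 in tumors 1 to 4. The other 7 neighbors did not differ beyond their spread: Nr1d2 exceeded Cry1 in 2 of 4 tumors, with a log2 difference of 0.08 ± 0.53 (SD, n = 4), and Nr1d1 exceeded Per1 in 3 of 4, with 0.14 ± 0.63.

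Tumor 1 was the exception for several of these pairs. There Dbp, at 2.65 CPM per kilobase, was above Nr1d1 at 2.11 and Per3 at 1.99, while in the other tumors it was the lowest of the 10. Per length of the longest transcript instead of the merged exons, Clock came second with 12.5 CPM per kilobase after Nr1d2 with 12.6, Cry2 next with 11.3 and Arntl, at 11.2, above Per2 at 7.85. The lower tier kept its 4 genes in the same order, from Nr1d1 with 3.89 to Dbp with 2.07.

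**Figure D3:**
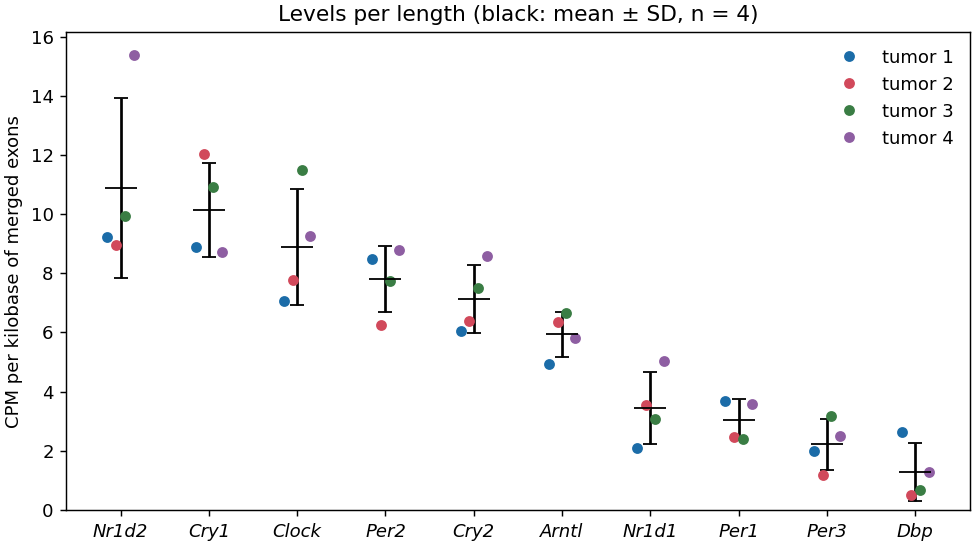
CPM per kilobase of merged exons (y axis) of each clock gene (x axis, in order of the mean); colored points are the 4 tumors, and black marks show the mean ± SD (n = 4). The upper tier from Nr1d2 at 10.9 to Arntl at 5.94 and the lower tier from Nr1d1 at 3.44 to Dbp at 1.27 are separated in each tumor.

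The 6 genes driven through E-boxes and D-boxes (Per1, Per2, Per3, Nr1d1, Nr1d2 and Dbp) were set against Arntl within each tumor, since the phase of a running clock moves them in opposite directions. The mean log2 CPM of the 6 genes minus that of Arntl was -0.95 in tumor 1, -1.88 in tumor 2, -1.61 in tumor 3 and -0.96 in tumor 4, or -1.35 ± 0.47 (SD, n = 4). Tumors 1 and 4 were therefore high and close together, and tumors 2 and 3 low. Leaving out single tumors gave SDs from 0.38 to 0.53. No test was made of this value, which describes 4 libraries.

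The 6 genes did not contribute alike. Dbp minus Arntl spanned 2.71 log2 units, from -4.93 in tumor 2 to -2.22 in tumor 1. Per3 minus Arntl spanned 1.37 units, Per1 minus Arntl 1.04, Nr1d1 minus Arntl 1.01, Nr1d2 minus Arntl 0.91 and Per2 minus Arntl 0.79. Per1, Per2, Nr1d2 and Dbp had their 2 higher values against Arntl in tumors 1 and 4, but Nr1d1 and Per3 did not. Nr1d1 minus Arntl was lowest in tumor 1 (-2.51) and highest in tumor 4 (-1.49). Per3 minus Arntl was lowest in tumor 2 (-2.08) and highest in tumor 3 (-0.71). The log2 difference of Dbp minus Nr1d1 was 0.29 in tumor 1 and -2.81, -2.23 and -2.01 in tumors 2, 3 and 4, a span of 3.09. Its SD of 1.36 was the largest of the 45 pairs of clock genes, and Dbp exceeded Nr1d1 in tumor 1 only.

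**Figure D4:**
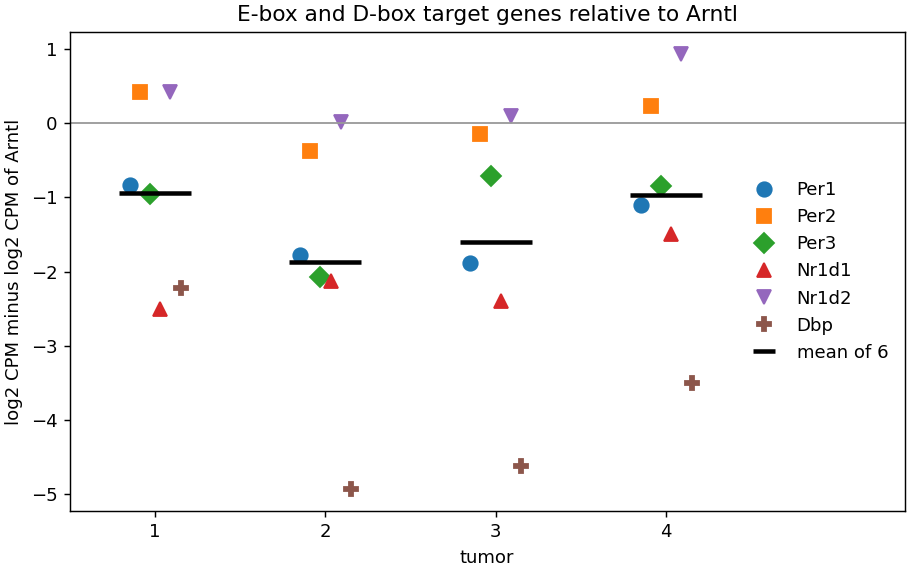
Log2 CPM of each of 6 E-box and D-box target genes minus that of Arntl (y axis) in tumors 1 to 4 (x axis); symbols are genes and black bars the mean of the 6. The bars lie at -0.95 and -0.96 in tumors 1 and 4 and at -1.88 and -1.61 in tumors 2 and 3. Nr1d1 is lowest in tumor 1 at -2.51, and Per3 is highest in tumor 3 at -0.71.

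The ratios of some other pairs of clock genes varied less. The log2 difference of Arntl minus Cry1, per kilobase, was -0.77 ± 0.15 (SD, n = 4), the smallest SD of the 45 pairs, followed by Cry2 minus Nr1d2 with an SD of 0.19 and Per1 minus Per2 with 0.21. The highest tumor was tumor 4 for 4 of the 10 clock genes, tumor 3 for 3, tumor 1 for 2 and tumor 2 for 1. The lowest was tumor 1 or tumor 2 for 4 genes each.

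Likeness over the 4 tumors was measured as the Euclidean distance between log2 CPM values centered on each gene's mean, against the 10269 genes with a mean of at least 10 CPM plus the clock genes themselves. The genes nearest to Arntl were Lypla1, Smad5 and Arl6ip5 (distances 0.03 each, on the log2 scale), and those nearest to Per1 were Pde7a (0.06), Prpsap1 (0.09) and 1110008L16Rik (0.10). Nearest to Nr1d1 were Mettl7a1 (0.14), Tcp11l2 (0.16) and Smim1 (0.16). Nearest to Dbp were Tns4 at 0.38, Tnip3 at 0.44 and Pla2g7 at 0.44. This distance grows with a gene's own spread and counting noise, so distances from different clock genes cannot be compared. Tns4 had 30.1, 6.97, 6.29 and 15.6 CPM, with the high tumor 1, the low tumors 2 and 3 and the intermediate tumor 4 of Dbp.

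No clock gene was among the 100 genes nearest to any of these 4. From Dbp, the ranks among 10269 genes were 457 for Per1, 1645 for Per2, 4709 for Nr1d2, 5638 for Per3, 6099 for Cry2, 8085 for Clock, 8124 for Arntl, 8395 for Cry1 and 9261 for Nr1d1. From Arntl, they were 1101 for Cry1, 2641 for Clock, 3197 for Cry2, 6204 for Per2, 7161 for Nr1d2, 7734 for Nr1d1, 8386 for Per1, 9271 for Per3 and 10086 for Dbp. The first clock genes in rank from Arntl were thus Cry1, Clock and Cry2. Because Arntl varied least and the distance grows with spread, variable genes such as Per3 and Dbp tend to rank far from it. From Nr1d1, its paralog Nr1d2 came first at 399, then Cry2 at 612, Arntl at 2044, Clock at 2751, Cry1 at 4797, Per2 at 4890, Per1 at 6647, Per3 at 8843 and Dbp at 10096. From Per1, Per2 came at 772, Nr1d2 at 3930, Cry2 at 4774, Arntl at 7373, Cry1 at 8002, Clock at 8015, Nr1d1 at 8788, Per3 at 8971 and Dbp at 9417. Over all 10 clock genes, the only other one found within the nearest 100 was Cry2, at rank 87 from Nr1d2. The nearest 100 are a small part of the 10269 genes compared, so unrelated genes would also give such low numbers. These ranks rest on 4 libraries and are a description.

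A further 25 genes of the clock machinery were taken from 3 lists. Of these, 23 had a mean of at least 1 CPM and 22 passed the test of spread, against 76.7% of all genes, and their median SD was 0.25 against 0.32 for the 10 clock genes and 0.29 for all genes. The 2 not detected at that level were Rorb and Hlf, both at no more than 3 counts in each tumor. Of the transcription factors, 8 of 9 detected genes passed, with Arntl2, a paralog of Arntl with 8.48 to 11.4 CPM, as the exception (chi-square, adjusted p = 0.203).

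Ciart, which encodes a repressor of the Arntl and Clock dimer, had 4.29, 1.51, 3.58 and 3.33 CPM and was lowest in tumor 2, as were Per2, Per3, Nr1d2 and Dbp (chi-square, adjusted p = 0.0132). Tef, the PAR bZIP paralog of Dbp, had 6.01 ± 1.43 CPM per kilobase (SD, n = 4) against 1.27 ± 0.975 for Dbp. Its 49.8, 31.1, 50.8 and 57.2 CPM were again lowest in tumor 2. Unlike Dbp, Tef was not highest in tumor 1. Npas2, which can stand in for Clock, had 13.6, 27.6, 15.7 and 30.1 CPM, with tumors 2 and 4 high. The log2 difference of Npas2 minus Clock therefore ranged from -3.33 in tumor 3 to -1.94 in tumor 2.

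Rora, an activator that competes with the REV-ERB receptors at ROREs, had 18.8, 43.7, 47.4 and 32.6 CPM, with tumor 1 lowest as for Arntl. Nfil3, the D-box repressor, stayed between 29.6 and 37.6 CPM, and the E-box repressor Bhlhe41 had 5.39, 4.99, 14.8 and 7.49 CPM. Its paralog Bhlhe40 had 203, 206, 148 and 206 CPM.

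**Figure D5:**
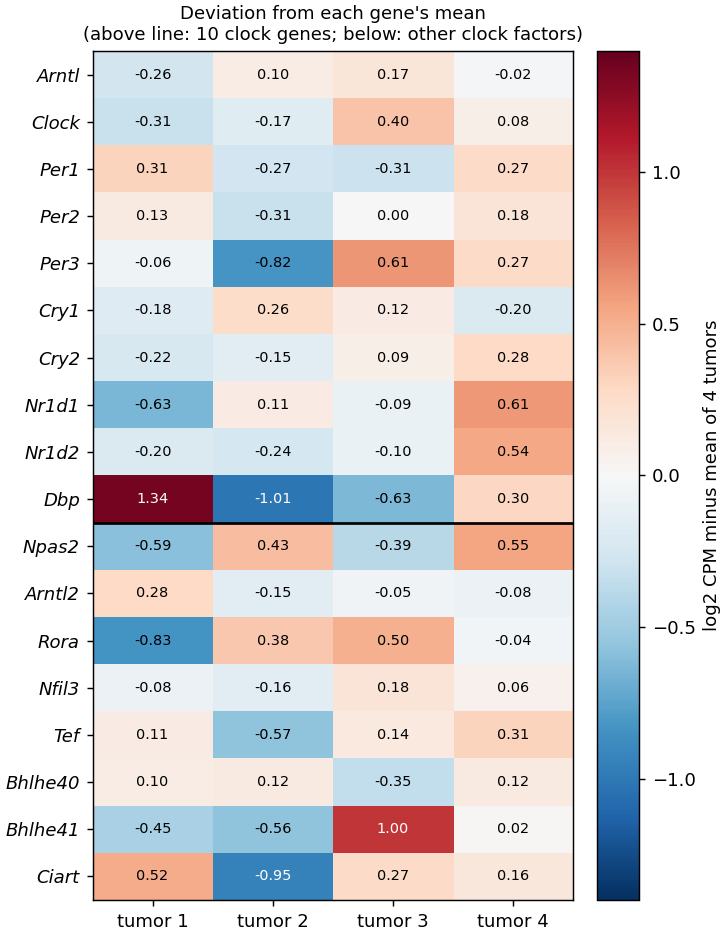
Log2 CPM minus the mean of the 4 tumors (color and printed value) for the 10 clock genes (above the line) and 8 other clock transcription factors (below it) in tumors 1 to 4 (columns). Dbp is at 1.34 in tumor 1 and -1.01 in tumor 2, and Per3, Tef and Ciart share their lowest value with Dbp in tumor 2.

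The kinases and ubiquitin ligases that set the stability of Per and Cry proteins were more even. All 8 were detected and 8 of 8 passed the test of spread, against 76.7% of all genes, with a median SD of 0.23. Csnk1e, a casein kinase that phosphorylates Per, had 142, 85.1, 93.2 and 107 CPM, highest in tumor 1. Fbxl21, a ubiquitin ligase gene, had 1.45 ± 0.692 CPM (SD, n = 4), from 7 to 19 counts per tumor. Csnk1d, the other casein kinase that acts on Per, had 145 to 209 CPM and, like Csnk1e, was highest in tumor 1. The kinase genes Gsk3b and Csnk2a1 had 110 to 159 and 137 to 174 CPM and were lowest in tumor 1. Btrc and Fbxw11, whose products mark phosphorylated Per for degradation, had 21.5 to 29.6 and 95.8 to 130 CPM.

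Of the cofactors 6 of 6 passed, against 76.7% of all genes, with a median SD of 0.25. Ncor1 and Hdac3, the corepressor pair through which REV-ERB receptors act, had 228 to 334 and 91.9 to 126 CPM. The acetyltransferase genes Ep300 and Crebbp had 98.2 to 134 and 23.8 to 36.2 CPM. The deacetylase gene Sirt1 had 41.8, 37.2, 56.1 and 47.1 CPM, highest in tumor 3, and Timeless, which is also a replication fork gene, had 18.4, 20.4, 14.2 and 13.9 CPM.

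Of 5 output genes, 4 were detected and passed the test of spread, which 76.7% of all genes passed. Por, a cytochrome P450 reductase, had 130, 119, 68.1 and 109 CPM, Nampt, which makes a precursor of NAD, had 139, 106, 178 and 127 CPM, and Wee1, a cell cycle kinase, had 33.6, 23.7, 21.2 and 22.6 CPM. Wee1 was thus highest in tumor 1, as Dbp was, while Usp2 had a mean of 0.799 CPM and was not tested. Glucocorticoid signaling also sets Per1, and of 6 genes of that response 5 were detected and passed, again against 76.7% of all genes. Their order differed: Fkbp5 was highest in tumor 1 (33.0 CPM against 14.2 to 23.2), Sgk1 in tumor 3 (60.8 against 23.1 to 31.8) and Dusp1 in tumor 4 (57.7 against 26.1 to 44.1). Of the immediate-early genes 9 of 10 passed, against 76.7% of all genes, and those with the largest SD were Fosb (1.76, 0.581, 1.60 and 1.55 CPM, the one that did not pass), Atf3 (12.7, 4.18, 9.87 and 10.2 CPM) and Ier2 (27.0, 18, 10.9 and 17.2 CPM).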

How the data were processed

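Polyadenylated RNA (500 ng of total RNA per library, stranded TruSeq kit, single-end reads) of 4 KP lung tumors was sequenced. The authors aligned reads to mm10 with HISAT2. The submitters' processing notes name bcl2fastq 2.17, Cutadapt 1.4.2 and featureCounts 1.4.4, and the paper's methods name a later Cutadapt. The strand setting and annotation release are not given in the sources used here. The deposited tables hold raw counts per Ensembl gene, without normalization, and a combined table that equals the single ones (156068 of 156068 values). The deposited log2 table holds the authors' normalised log2 values (TMM and voom) and served as an alternative.

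CPM were counts over TMM effective library sizes (edgeR 4.0.16, R 4.3.3). Log2 CPM used 0.5 added to counts. Genes with a mean of at least 1 CPM were tested (14225). Spread was tested by a chi-square test of 4 counts against Poisson expectations (3 degrees of freedom, scipy 1.17.1), with Benjamini-Hochberg adjustment over all genes, and the procedure was tested on simulated data. Counting intervals are exact Poisson at 95% and, like the limit of 3 counts, cover counting error only, since reads carried no molecular identifiers. The labels do not say whether tumors came from separate mice, so p-values measure only the spread between these samples. Positions, lengths and overlaps are from GENCODE M21 (GRCm38), the build of mm10, which held 37693 of 39017 gene IDs. Near-identical stretches are at least 80 nt at 97% identity (BLAST).

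All 10 clock genes were described. Of other genes, the rule named every further clock gene (some items are not reported here), the 3 genes of largest SD in each list of outputs or responses, and the 3 nearest to Arntl, Per1, Nr1d1 and Dbp. The gene list, other lists, tests and alternatives were chosen with earlier results of these data known. Of the listed genes, Ciart and the macrophage marker Adgre1 were matched by identifier and the rest by symbol.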

Additional observations from a re-analysis of the deposited data

Results flagged for a closer look

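A tumor was singled out where its gap to the nearest other tumor, over the whole range of the 4, exceeded Dixon's 95% limit, which chance passes in about 1 of 20 results. Of 49 results tested this way, 4 passed, where chance gives 2.45. None of these 4 was one of the 10 clock genes, but passing depends on the scale. In CPM, Nr1d2 also stood apart in tumor 4, with 83.3 against 48.4 to 53.7 in the others. Bhlhe40 was low in tumor 3, with 148 CPM against 203 to 206 in the others. The mean log2 CPM of alveolar type 2 markers was low in tumor 1 (10.77 against 11.70 to 11.89, 6 of 8 genes lowest there). That of T cell markers was high in tumor 3, at 2.09 against -0.46 to -0.07, from 3 genes. Of these, Cd2 and Cd3g rose there, and Trbc2 (1.73 CPM against 0.357 to 1.51) hardly did. That of endothelial markers was also high in tumor 3, at 5.17 against 4.63 to 4.69. No cause of these was tested.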

How the results depend on the processing

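The number of clock genes whose spread passed stayed between 9 and 10 under DESeq2 size factors (DESeq2 1.42.0), total counts without TMM, each tumor left out, and other filters. The genes lost were Arntl without tumor 1, Per2 without tumor 2, Nr1d2 without tumor 4, and Dbp under a minimum of 10 CPM, where it was not tested. Over all genes the number was 8807 to 10244 with a tumor left out and 11323 with no filter. Of 50 results of whole comparisons under an alternative, 49 stayed within their limits. The exception was the number of other clock genes among the 100 nearest to Dbp, 0 in all tumors and 0 to 1 with a tumor left out, the 1 arising without tumor 1. Levels per kilobase of Arntl, Clock, Per3 and Cry2 moved by more than their SD with the length of the longest transcript. No paired analysis was possible because the labels give 1 group. Dbp rests on 13 to 72 counts per tumor, and its 5.25-fold range was 2.52-fold without tumor 1.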
